A study of Mus musculus with 6 samples.

Results

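The 10 genes described here, Ttr, Kl, Folr1, Enpp2, Aqp1, Clic6, Otx2, Sostdc1, Slc4a5 and Prlr, are known for their expression in the choroid plexus and were taken by name from the 38355 genes listed in the deposited counts. They were chosen by the measured age difference of Ttr in these same samples, with the other 9 added as genes of the same epithelium, so their levels at the 2 ages are given as a description without a test. All 10 were listed, and 9 passed edgeR's filter on low counts, the exception being Slc4a5. RNA sequencing of polyadenylated RNA compared whole cortical hemispheres of wild-type C57BL/6 mice, an inbred strain, at 6 months (3 samples) and at 16 months (3 samples). Mice of both ages shared the light cycle and were anesthetized with chloral hydrate before the brain was removed. The paper's methods, in their section on cell sorting, say that its RNA sequencing used male mice. In 1 place the labels call the younger mice 3 months old, and every title and age label, like the paper, has 6 months.

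The choroid plexus is a folded sheet of epithelium that hangs into the ventricles, beside the cortex and the hippocampus, and secretes the cerebrospinal fluid. Its cells are joined by tight junctions, pump ions and water from blood to fluid, and release carrier proteins, among which transthyretin, the product of Ttr, binds thyroxine and the retinol carrier. The epithelium is not part of the cortical tissue itself. Several of the 10 genes are also known from other cells of the brain, such as Enpp2 in oligodendrocytes and Kl in neurons.

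Total counts on genes lay between 29797253 and 46519280 per sample, and the floor of 3 counts used here corresponded to between 0.0640 and 0.100 CPM (counts scaled to library size after TMM adjustment). In replicate 1 of 16 months the deviations from the mean of the age followed the GC content of the genes with r = 0.588 across the 98.7% of 17120 tested genes with a known GC content, and in replicate 2 of 16 months with r = -0.582, whereas the other 4 samples lay between -0.130 and 0.160. The genes behind these correlations are not independent replicates. Markers of cortical projection neurons were present in every sample, with a summed level of 10 markers between 1553 and 1861 CPM, led by Slc17a7, the vesicular glutamate transporter. Of the 10 genes, Folr1, Aqp1, Otx2 and Slc4a5 stayed under 1 CPM in every sample, and none was at 0 in any. Among 30 further choroid plexus genes, 14 were under 1 CPM in every sample, among them the potassium channel genes Kcne2 and Kcnj13 and the tight junction gene Cldn2. The libraries held the defining genes of the choroid plexus at low levels, and transcripts from adhering epithelium and from cortical cells cannot be told apart in them.

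Of the fitted genes Ttr and Otx2 had the largest log2 fold changes, and that of Ttr had the smaller standard error. Its level was 8.51, 9.60 and 8.75 CPM in replicates 1, 2 and 3 at 6 months and 18.1, 18.7 and 16.6 CPM at 16 months. All 3 samples of 16 months lay above all 3 of 6 months, and the lowest aged sample was far from the highest young one. The underlying counts were 399, 288 and 367 at 6 months and 600, 587 and 568 at 16 months. The means were 8.95 ± 0.573 and 17.8 ± 1.08 CPM (SD, n = 3 each), and the log2 fold change of 16 over 6 months was 1.00 ± 0.077 (SE). Across the 15 alternative fits this value stayed between 0.96 and 1.08, and it was 0.99 without replicate 1 and 0.96 without replicate 2 of 16 months. In whole tissue, more cells that make a transcript and more transcript per cell cannot be told apart. Ttr (ENSMUSG00000061808) lies on the plus strand of chromosome 18 of GRCm38 from 20665280 to 20674321, overlaps no other annotated gene and has no near-identical copy among the annotated transcripts.

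**Figure D1:**
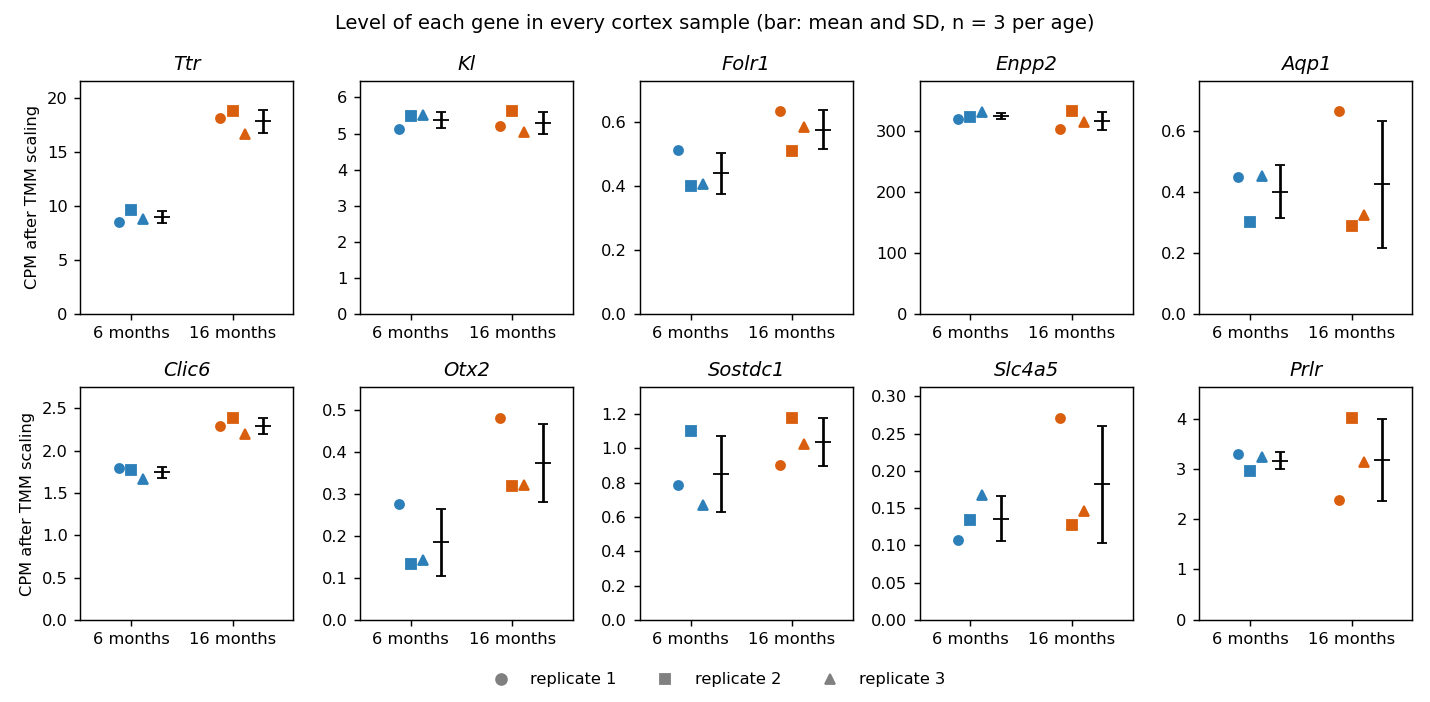
Level of each of the 10 genes in every cortex sample in CPM after TMM scaling, on linear axes that start at 0, with 1 point per sample, a shape per replicate number and bars for the mean and SD of each age (n = 3). The aged samples lie above all young samples for Ttr, Clic6 and Otx2, and the ages overlap in the other 7 panels.

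The receptors of the epithelium overlapped between the ages. All positions are on GRCm38. Folr1 (ENSMUSG00000001827, chr7:101858331-101870788, minus strand) encodes the folate receptor that carries folate across the choroid plexus. Its counts were 24, 12 and 17 at 6 months and 21, 16 and 20 at 16 months. These corresponded to 0.512, 0.400 and 0.405 CPM at 6 months and 0.634, 0.510 and 0.586 CPM at 16 months. The ages overlapped in 1 pair of samples, since replicate 1 of 6 months lay just above replicate 2 of 16 months. The log2 fold change was 0.37 ± 0.24 (SE). Folr1 overlaps Anapc15 on the opposite strand. Prlr (ENSMUSG00000005268, chr15:10177238-10349180, plus strand) encodes the prolactin receptor, which is abundant in this epithelium. It stood at 3.29, 2.97 and 3.24 CPM at 6 months and at 2.38, 4.02 and 3.13 CPM at 16 months. The aged samples held both the lowest and the highest value of the 6, and the log2 fold change was -0.0059 ± 0.17 (SE). Prlr overlaps Gm21973 on the same strand. Kl (ENSMUSG00000058488, chr5:150952607-150993817, plus strand) encodes klotho, the co-receptor of the hormone FGF23, whose shed form is found in cerebrospinal fluid. It was measured at 5.12, 5.50 and 5.51 CPM at 6 months and at 5.22, 5.61 and 5.04 CPM at 16 months. The ranges lay on top of each other, with a log2 fold change of -0.021 ± 0.087 (SE).

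The ion and water transport genes were at low levels. Clic6 (ENSMUSG00000022949, chr16:92485736-92541243, plus strand), a chloride intracellular channel gene, had 1.79, 1.77 and 1.67 CPM at 6 months and 2.29, 2.39 and 2.20 CPM at 16 months. All 3 aged samples lay above all young ones, and the log2 fold change was 0.40 ± 0.12 (SE). Clic6 overlaps the gene 2410124H12Rik on the same strand. Aqp1 (ENSMUSG00000004655, chr6:55336432-55348555, plus strand), the water channel of the apical membrane, had 0.448, 0.300 and 0.453 CPM at 6 months and 0.664, 0.287 and 0.322 CPM at 16 months. Its highest and its lowest value were both in aged samples. The log2 fold change of Aqp1 was 0.050 ± 0.35 (SE), and it was -0.43 without replicate 1 and 0.25 without replicate 2 of 16 months. It was also negative, at -0.081, without replicate 2 of 6 months. Slc4a5 (ENSMUSG00000068323, chr6:83219828-83304945, plus strand), an electrogenic sodium bicarbonate cotransporter of the same membrane, had 5, 4 and 7 counts at 6 months and 9, 4 and 5 counts at 16 months. These counts lay close to the floor of 3, the ages overlapped, and no difference was detectable at this depth.

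Enpp2 and Sostdc1 encode secreted proteins. Enpp2 (ENSMUSG00000022425, chr15:54838901-54952892, minus strand), or autotaxin, makes the signalling lipid lysophosphatidic acid and was by far the most abundant of the 10 genes. It had 320.1, 324.4 and 331.3 CPM at 6 months and 303.5, 333.0 and 315.5 CPM at 16 months. The ages overlapped, and the log2 fold change was -0.036 ± 0.053 (SE). The antisense gene Gm26684 overlaps Enpp2, and because the strand setting of the counting is not given in the sources used here, reads of both cannot be separated with certainty. Oligodendrocytes, which are known to express Enpp2, were measured with 12 markers whose summed level lay between 7477 and 7549 CPM at 6 months and between 7512 and 7637 CPM at 16 months. Sostdc1 (ENSMUSG00000036169, chr12:36314139-36318452, plus strand), an antagonist of BMP and Wnt signalling, had 0.789, 1.10 and 0.667 CPM at 6 months and 0.905, 1.18 and 1.02 CPM at 16 months. Its highest young sample lay above 2 of the aged samples, and the log2 fold change was 0.32 ± 0.22 (SE).

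Otx2 (ENSMUSG00000021848, chr14:48657677-48673819, minus strand) encodes the homeodomain transcription factor that specifies the choroid plexus and is needed to maintain it. It had 13, 4 and 6 counts at 6 months and 16, 10 and 11 counts at 16 months, or 0.277, 0.133 and 0.143 CPM and 0.483, 0.319 and 0.322 CPM. The aged samples lay above all young ones, but the smallest distance between the ages, from 0.277 to 0.319 CPM, was less than the SD of 0.0805 within 6 months. The log2 fold change was 0.95 ± 0.38 (SE), and it ranged from 0.72 without replicate 1 of 16 months to 1.41 without replicate 1 of 6 months. Otx2os1 on the opposite and Gm49154 on the same strand overlap Otx2 in the annotation used here, and both are without a row in the counts.

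Read as a group, 6 of the 9 fitted genes had a positive and 3 a negative log2 fold change, and 4 were within 1 standard error of 0. The median over the 9 was 0.32, and 0.18 without Ttr, where the median over all 17120 tested genes was 0.0014. Of all tested genes edgeR's quasi-likelihood test called 1.67% (286 genes, with 0.783% higher and 0.888% lower at 16 months) at a Benjamini-Hochberg adjusted P under 0.05, and of the 9 it called 1, Ttr. With offsets for gene length and GC content, 64.8% of the called genes were higher against 46.9% without them. The number called was between 48 and 58 without any 1 of the 6-month samples or without replicate 3 of 16 months, 995 without replicate 1 and 2211 without replicate 2 of 16 months. In 3 of the 9 (Ttr, Clic6 and Otx2) every aged sample exceeded every young one, as it did in 12.2% of the tested genes. Because the genes were chosen with the age difference of Ttr known, nothing is read from these shares.

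**Figure D2:**
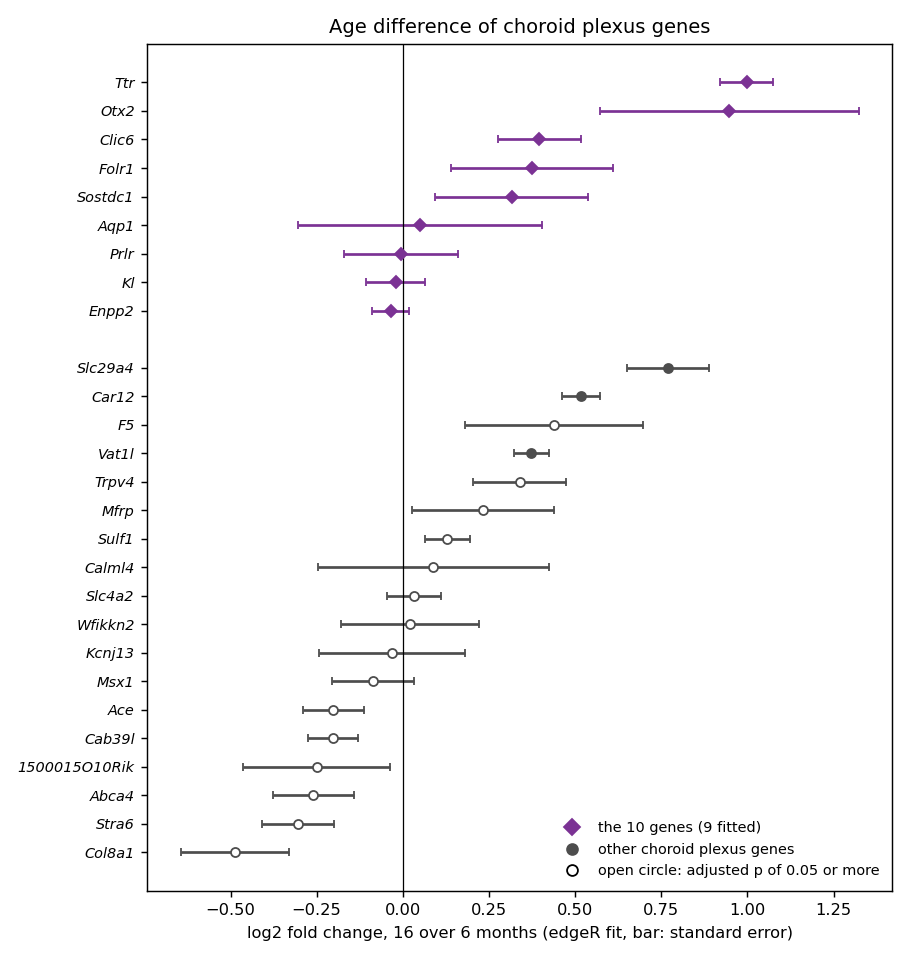
Log2 fold change of 16 over 6 months from the edgeR fit for 9 of the 10 genes (purple diamonds, Slc4a5 not fitted) and for 18 of the 19 fitted genes of a second choroid plexus list (grey circles), with bars for the standard error and, in the second list, open circles where the adjusted P was 0.05 or more. Ttr stands at 1.00 with a narrow bar and Otx2 at 0.95 with a wide one, while Kl, Enpp2 and Prlr sit at 0 within their bars.

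Samples differed in the same way across several of the scarce genes. Replicate 1 of 16 months had the highest level of all 6 samples for Folr1, Aqp1, Otx2 and Slc4a5, and the lowest for Enpp2 and Prlr. The GC content of the longest transcript was 54.4% for Folr1, 54.9% for Aqp1 and 52.1% for Slc4a5, against 44.9% for Enpp2 and 39.4% for Prlr and 46.8% for Otx2. Clic6, at 52.2%, did not share the pattern, and Ttr, at 46.5%, was highest in replicate 2. With offsets for GC content and length the log2 fold changes were 1.08 for Ttr, 0.95 for Otx2, 0.39 for Clic6, 0.39 for Folr1, 0.37 for Sostdc1, 0.088 for Prlr, 0.062 for Aqp1, -0.012 for Enpp2 and -0.014 for Kl. The order of the leading genes was the same as without the offsets. The cause of the pattern in replicate 1 of 16 months was not tested.

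Compared per kilobase of annotated exon, the levels of the 10 genes spanned a wide range. Enpp2 led with 56.3 ± 0.979 CPM per kilobase at 6 months and 54.9 ± 2.57 at 16 months (SD, n = 3 each), followed by Ttr with 7.55 ± 0.483 and 15.02 ± 0.907. Both stood clear of all other genes in every sample. Kl came next with a mean over all samples of 0.572 CPM per kilobase, then Sostdc1 with 0.530 and Clic6 with 0.516. These 3 overlapped in their sample values and had no fixed order. Folr1 (0.221), Prlr (0.207) and Aqp1 (0.157) formed a lower set, again overlapping, and Otx2 (0.0662) and Slc4a5 (0.0273) were lowest. The sample values of Otx2 overlapped with those of Aqp1 above and of Slc4a5 below it. The exon length counts every annotated exon once, and for genes with many isoforms, such as Prlr with 15339 bases, it exceeds the length of any 1 transcript.

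**Figure D3:**
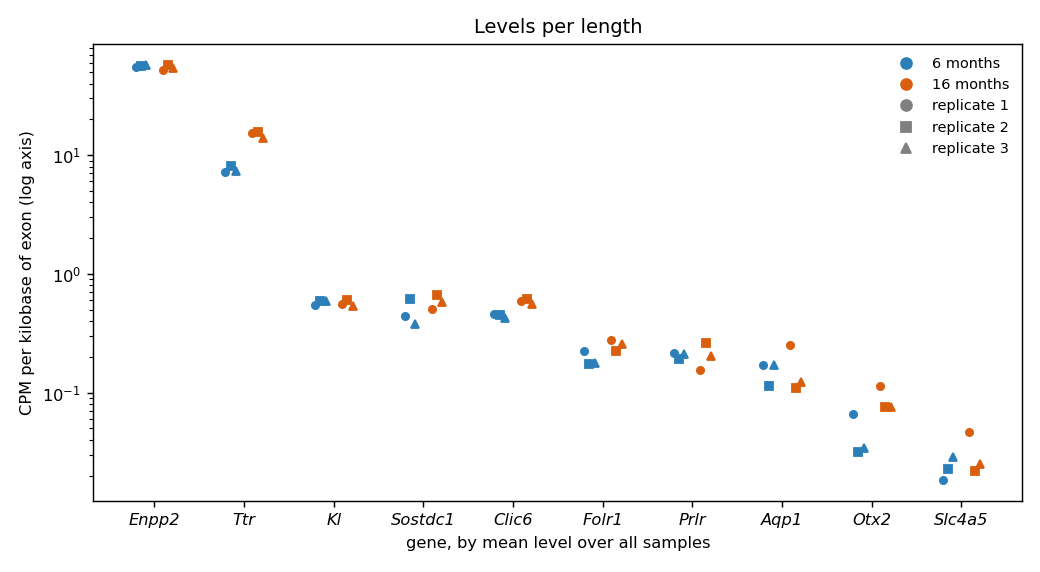
CPM per kilobase of exon for the 10 genes in every sample on a log axis, ordered by their mean, with blue for 6 and orange for 16 months and a shape per replicate number. Enpp2 lies between 52.5 and 57.6 and Ttr between 7.18 and 15.8, and the other 8 genes lie at 0.663 or less.

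The proportions of these transcripts within a sample changed with Ttr. For every 100 Ttr counts there were 60.1, 57.3 and 62.9 Kl counts at 6 months and 28.8, 30.0 and 30.3 at 16 months. The corresponding numbers for Clic6 were 21.1, 18.4 and 19.1 at 6 months and 12.7, 12.8 and 13.2 at 16 months. For Folr1 they were 6.02, 4.17 and 4.63 at 6 months and 3.50, 2.73 and 3.52 at 16 months. In 6 of the 9 genes (Kl, Folr1, Enpp2, Clic6, Sostdc1 and Prlr) this ratio was lower in every aged than in every young sample. Ttr itself had a log2 fold change of 1.00, so a gene that keeps its level also has a lower ratio at 16 months. The share of all tested genes with such a lower ratio was not computed, and nothing is read from this count. Otx2 was the gene whose mean ratio to Ttr moved least, with 2.09 ± 1.02 counts per 100 Ttr counts at 6 months and 2.10 ± 0.501 at 16 months (SD, n = 3 each). That ratio rested on 4 to 16 Otx2 counts in a sample. The ratios of Otx2, Aqp1 and Slc4a5, each with 22 counts at most in a sample, overlapped between the ages. All of these ratios contain the Ttr counts that chose the group, and they are given as values without a test.

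**Figure D4:**
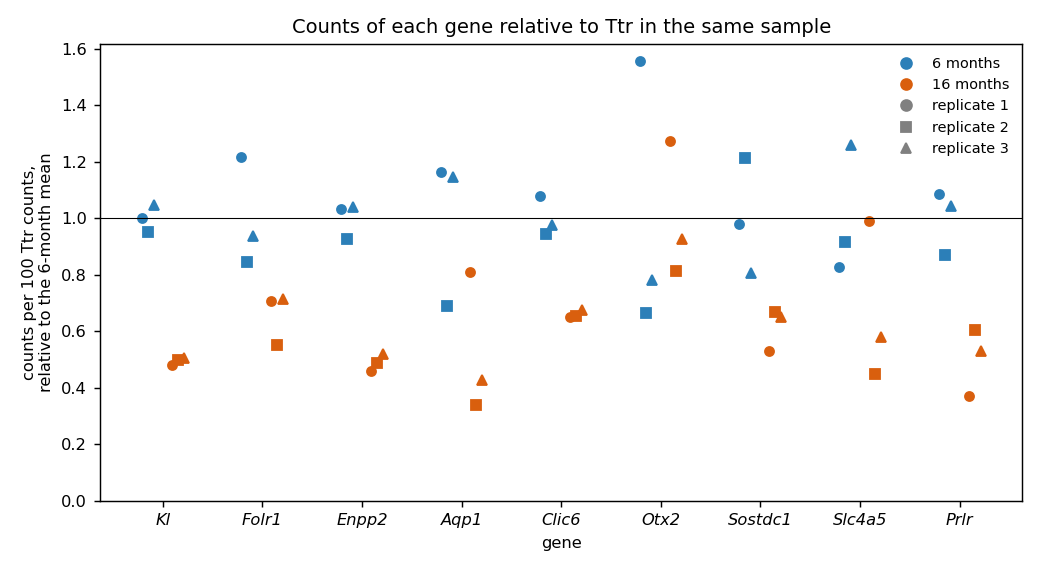
Counts of 9 genes per 100 Ttr counts in the same sample, divided by the mean of the 6-month samples, with blue for 6 and orange for 16 months and a shape per replicate number. The aged samples of Kl, Folr1, Enpp2, Clic6, Sostdc1 and Prlr lie below all young samples, and Aqp1, Otx2 and Slc4a5 overlap.

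A second list of 30 choroid plexus genes was written from general knowledge of the tissue, with earlier results of these data known. It was compared between the ages with edgeR's quasi-likelihood test. Of 19 genes that passed the filter, 3 rose, 0 fell and 16 did not pass the test, against 1.67% called among all tested genes. The median log2 fold change of the list was 0.022. The one-sided direction depended on the fit: with the offsets for length and GC content 3 were called higher and 4 lower (Col8a1, Stra6, Ace and Cab39l), without replicate 2 of 16 months 3 higher and 2 lower (Col8a1 and Cab39l), and without replicate 1 of 16 months 3 higher and 1 lower (Ace). Car12, a membrane carbonic anhydrase, rose from 19.5, 19.2 and 19.4 CPM at 6 months to 27.8, 28.2 and 27.3 CPM at 16 months (log2 fold change 0.52 ± 0.055 SE, edgeR, Benjamini-Hochberg adjusted P = 0.00215). Slc29a4, the plasma membrane monoamine transporter, which neurons also carry, rose from 5.21, 4.70 and 5.03 CPM to 10.1, 7.37 and 8.08 CPM (log2 fold change 0.77 ± 0.12 SE, edgeR, adjusted P = 0.0137). Vat1l, a gene of little known function that neurons express as well, rose from 40.3, 41.9 and 40.7 CPM to 52.3, 53.1 and 53.8 CPM (log2 fold change 0.37 ± 0.051 SE, edgeR, adjusted P = 0.00779). In each of the 3 the aged samples lay above all young ones. The level of Car12 was above that of Ttr in every sample, and which cells carried it was not tested. Car12 was called in each of the 6 fits that left out 1 sample, whereas Slc29a4 and Vat1l were not called without replicate 1, 2 or 3 of 6 months or without replicate 3 of 16 months (1 gene called in each of these fits).

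The abundant genes of the second list that did not pass the test went in both directions. Slc4a2, the basolateral anion exchanger, had a log2 fold change of 0.031 and Sulf1, a heparan sulfatase, of 0.13. Ace, the angiotensin-converting enzyme, stood at -0.20, Cab39l, a kinase adaptor, at -0.20, Stra6, the retinol uptake receptor, at -0.30 and the collagen gene Col8a1 at -0.49. The other 11 genes of the list were not fitted because of their low counts. Among them, and chosen after their values were seen, Cldn2 had 4, 4 and 6 counts at 6 months and 8, 9 and 11 at 16 months, and Tmem72, a membrane protein gene of this epithelium, had 2, 2 and 1 counts at 6 months and 7, 3 and 5 at 16 months. In Cldn2 and Tmem72 the aged samples lay above the young ones in CPM, at levels near the floor. This was so in 12.2% of the genes that passed the filter. The ages overlapped in all other unfitted genes of the list. Slc28a3 had a lower mean at 16 months, with 6, 3 and 3 counts at 6 months and 1, 1 and 3 at 16 months. Kcne2, with 7, 3 and 5 counts at 6 months and 5, 12 and 4 at 16 months, and the transcription factor gene Lmx1a, with at most 2 counts in a sample, showed no separation.

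Genes that act with the 10 were examined in 3 further lists, which share some genes with the second list. These lists, too, were written with earlier results of these data known, and 1.67% of all tested genes were called. Of 13 fitted genes for the secretion of cerebrospinal fluid, 1 rose (Car12) and 1 fell. Car2, the cytosolic carbonic anhydrase, fell from 261.1 ± 8.98 to 213.1 ± 10.5 CPM (SD, n = 3 each, edgeR, Benjamini-Hochberg adjusted P = 0.0314). Atp1b1, a sodium pump subunit and the most abundant gene of that list, had a log2 fold change of 0.11 and did not pass the test. Of 14 genes for thyroid hormone and retinol handling, the ligands of transthyretin and its partner, 1 rose and 13 did not pass. This was Klf9, a Krüppel-like transcription factor that responds to thyroid hormone and to glucocorticoids, which rose from 173.9 ± 3.21 to 220.7 ± 4.85 CPM (SD, n = 3 each, edgeR, Benjamini-Hochberg adjusted P = 0.00939). Thra, the thyroid hormone receptor, and Dio2, the deiodinase that activates thyroxine, had log2 fold changes of 0.091 and 0.13. Car2 and Klf9 were not called without replicate 1, 2 or 3 of 6 months or without replicate 3 of 16 months, which left 1 and 0 called genes in these lists. Both lists held more calls without replicate 2 of 16 months (5 and 4), and the second also without replicate 1 of 16 months (2). Of 22 fitted receptors, enzymes and signalling partners of the other genes, 0 passed the quasi-likelihood test and 0 passed DESeq2's Wald test. An unadjusted P under 0.05 in the quasi-likelihood test was seen in 2 of the 22, and in 17.4% of all tested genes. The most abundant of these partners were the phosphatase gene Plpp3, which breaks down lysophosphatidic acid, and the kinase gene Jak2, which acts below the prolactin receptor. They had log2 fold changes of 0.11 and -0.054.

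Markers of tissues that border the choroid plexus moved with age in both directions. Ependymal cells line the ventricles and adjoin the epithelium, and of 14 of their markers 13 had a negative log2 fold change, with a summed level between 61.9 and 68.0 CPM at 6 months and between 55.3 and 60.0 CPM at 16 months. Of these markers, 1 fell, Ccdc153, a gene of motile cilia, from 2.36 ± 0.185 to 1.40 ± 0.127 CPM (SD, n = 3 each). Meningeal fibroblasts were measured with 14 markers, of which 13 had a negative value and 3 fell (Igf2, Ogn and Slc13a4), with a summed level between 636.1 and 662.0 CPM at 6 months and between 551.7 and 609.5 CPM at 16 months. Markers of the thalamus rose in 6 of 12 genes, and none fell. Their summed level lay between 280.1 and 288.8 CPM at 6 months and between 299.1 and 335.1 CPM at 16 months. The largest log2 fold changes were 4.06 ± 0.27 (SE) for Shox2, 0.91 for Prkcd, 0.67 for Synpo2 and 0.48 for Ramp3. Shox2 had 4 counts in each 6-month sample, close to the floor of 3, and 48, 59 and 65 counts at 16 months. Markers of the dentate gyrus rose in 5 of 10 genes, among them Dsp, Lct, C1ql2 and Marcksl1, with a summed level between 205.6 and 212.4 CPM at 6 months and between 257.5 and 269.0 CPM at 16 months. Calls are by edgeR's quasi-likelihood test at a Benjamini-Hochberg adjusted P under 0.05, and no marker of these 4 lists was at 0 in every sample. That test called 1.67% of all tested genes. The marker lists were written with earlier results of these data known, so their calls are given as a description. Without any 1 of the 6-month samples or without replicate 3 of 16 months the calls were 3 for the thalamus, 2 for the dentate gyrus, 1 for the meningeal fibroblasts and 0 for the ependymal cells, each in the same direction. Without replicate 1 of 16 months they were 8, 6, 8 and 1, with 1 of the thalamic markers lower, and without replicate 2 of 16 months 6, 5, 6 and 3. With the offsets they were 9, 6, 7 and 3, again with 1 of the thalamic markers lower.

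Of 10 striatal markers 2 rose (Pde10a and Penk). Of 12 oligodendrocyte markers 2 rose (Mal and Cldn11) and 1 fell (Aspa), and of 10 endothelial markers 1 fell (Kdr). Of 10 markers of cortical projection neurons 0 passed the quasi-likelihood test, 0 passed DESeq2's Wald test and 1 had an unadjusted P under 0.05. Among all tested genes the quasi-likelihood test called 1.67%, and 17.4% had an unadjusted P under 0.05. For striatum, oligodendrocytes, endothelium and cortical projection neurons, in this order, the calls were all 0 without any 1 of the 6-month samples or without replicate 3 of 16 months. Leaving out replicate 1 of 16 months gave 2, 5, 2 and 1 calls, leaving out replicate 2 of that age gave 3, 5, 1 and 1, and the offsets gave 3, 7, 4 and 3. With the offsets, 2 striatal, 5 oligodendrocyte, 1 endothelial and 2 cortical markers were higher and the others lower. The part of tissue from bordering regions in the level of Ttr was not tested.

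**Figure D5:**
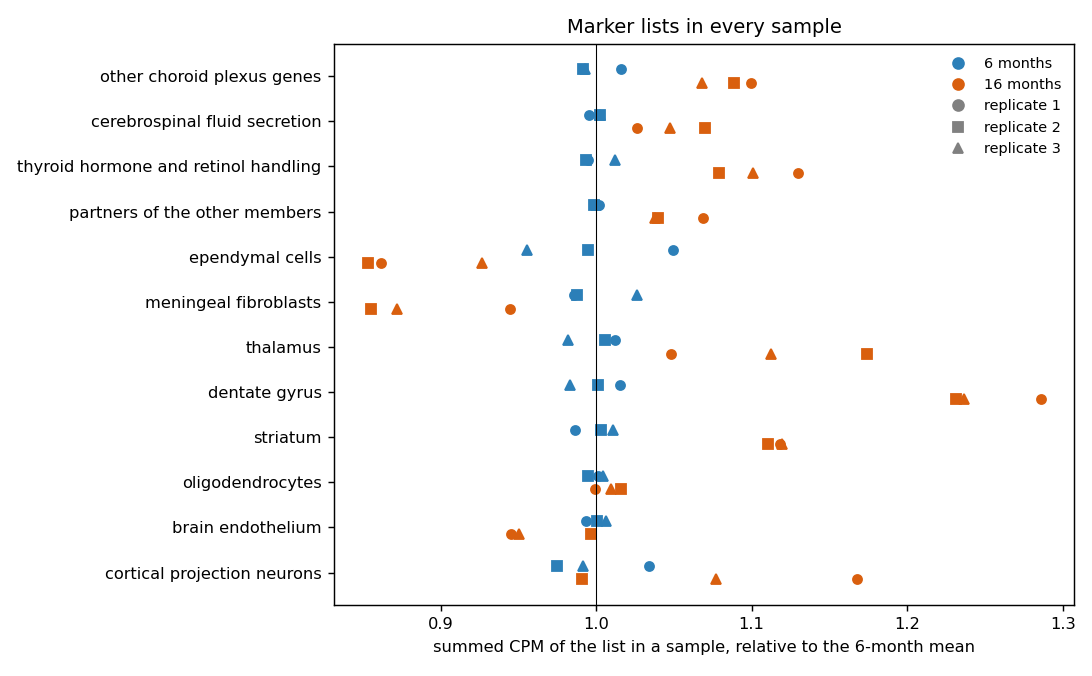
Summed CPM of each list of genes in every sample, divided by the mean of the 6-month samples, with blue for 6 and orange for 16 months and a shape per replicate number. The aged samples lie above the young ones for the second choroid plexus list, the 3 lists of partners, the thalamus, dentate gyrus and striatum, and below them for ependymal cells and meningeal fibroblasts, and the ages overlap for the other 3 lists.

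The genes whose levels followed those of Ttr most closely over the 6 samples were ranked by Pearson's r of log2 CPM among 14603 genes with a mean of at least 1 CPM. The 10 leading genes had r between 0.990 and 0.999 and were Klf9, Myh10 (a nonmuscle myosin), Fkbp5 (a co-chaperone of steroid receptors), Cdc42se1, Six3 (a homeodomain factor), Aplp2 (a relative of the amyloid precursor protein), Dusp6 (a phosphatase of ERK kinases), Cap1 (an actin-binding protein), Npnt (a matrix protein) and Aff2. None of them is on the lists of choroid plexus genes used here. Clic6 had r = 0.981, exceeded by 50 of the 14603 genes, and Otx2, Folr1 and Sostdc1 had r = 0.773, 0.744 and 0.611. Prlr, Aqp1, Kl and Enpp2 lay between -0.366 and -0.0209. The 6 samples fall into 2 ages, so that r reflects the difference between the ages as well as the spread within them, and 225 genes had r above 0.95. With Spearman's rho 2 of the 10, Klf9 and Npnt, remained among the leading genes, ties included.

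Since Otx2 protein binds DNA with the bicoid-type core TAATCC, the windows from 250 bases before to 50 after the annotated RefSeq starts were searched for these letters on either strand. Windows were taken from RefSeq for Kl, Aqp1, Slc4a5, Otx2 and Prlr (10 windows, GRCm38.p6) and not for Ttr, Folr1, Enpp2, Clic6 and Sostdc1. Of the 10 windows 1 held the letters, as did 7.06% of all 32851 windows of this length. The match lies 211 bases before 1 of the 4 annotated starts of Otx2 itself, at chr14:48665303-48665332 on the minus strand, and is shown because it is the one match among these genes, in gene orientation with the motif, read here from the opposite strand, in capitals.
Otx2: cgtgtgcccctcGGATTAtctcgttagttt
The match is a description of letters and says nothing about binding in these samples.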

How the data were processed

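Poly(A) RNA of cortical hemispheres was sequenced by the authors with paired-end reads. According to their methods, reads were trimmed with fastq-mcf, aligned to mm10 with STAR 2-pass and counted with HTSeq on the Ensembl annotation. The submitters' processing notes instead name STAR 2.3.0e and featureCounts 1.5.0-p1, but the deposited files end with HTSeq's summary lines. The deposited values are raw counts per gene, without normalization. HTSeq's summary lines were left out; they put 22.0% to 27.7% of assigned, ambiguous and unassigned reads outside any feature. HTSeq leaves out reads that overlap more than 1 gene.

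Identifiers of 36602 of 38355 genes were matched to GENCODE M21 (GRCm38). Ages were compared with edgeR 4.0.16 in R 4.3.3: filterByExpr (17120 genes kept), TMM, the quasi-likelihood test without covariates, and Benjamini-Hochberg adjustment at 0.05. Levels are CPM, and log2 CPM uses a prior count of 2. Standard errors are the absolute log2 fold change over the root of the F statistic. Near-identical copies were searched with blastn 2.17.0 (97% identity over 100 bases). The test was checked on simulated counts drawn without GC-linked deviations of samples, so the check does not cover such deviations. The 6 samples are separate brains per the paper, and p-values measure the spread between them. Floors cover counting error only.

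The 10 genes and the lists were chosen with earlier results of these data known. The rule for named genes took the 10 genes, the called and the 10 most abundant genes of the second choroid plexus list, up to 4 called genes and the 2 most abundant of every other list (abundant cell type markers are given within the sums), and the 10 genes most like Ttr; 2 of them are not reported here. Alternatives were other size factors, filters and fits, DESeq2 1.42.0, the replicate block, offsets for GC content and length (medians over 20 bins), and each sample left out; for the cell type lists the last 2 were added after seeing the data.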

Additional observations from a re-analysis of the deposited data

How the results depend on the processing

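The median log2 fold change of the 9 fitted genes lay between 0.17 and 0.33 in the fits that left out 1 sample. Under the other alternatives it moved by less than the spread between replicates. The number of called genes (286) was 648 without a filter on low counts, 513 with DESeq2's Wald test, 2656 with offsets for GC content and length, and between 48 and 2211 when 1 sample was left out (highest without replicate 2 of 16 months). Calls in the second choroid plexus list (3) numbered 7 with the offsets and between 1 and 5 with 1 sample left out. Calls for cerebrospinal fluid secretion (2) numbered 5 with the offsets and between 1 and 5 with 1 sample left out. Calls for thyroid hormone and retinol handling (1) numbered 2 without the filter, 2 with DESeq2, 7 with the offsets and between 0 and 4 with 1 sample left out. Calls among the partners of the other genes (0) numbered 2 with the offsets and between 0 and 1 with 1 sample left out. The cause of these shifts was not tested.

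Same-numbered samples share only a number: each is another mouse, and deviations from the age means correlated within pairs with r = 0.180, 0.0958 and 0.0351 for replicates 1, 2 and 3. With the replicate block, 783 genes were called and 3 for thyroid hormone and retinol handling. The replicate block with the offsets gave 3592 genes, and 7, 6, 7 and 3 in the second choroid plexus list and the lists for secretion, thyroid hormone and retinol, and partners. At this depth, genes with few counts, such as Otx2 and Aqp1, had wide errors, and Slc4a5 did not pass the filter.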
